A study of Mus musculus with 6 samples.

Results

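Output genes of the circadian clock, 10 in all, were followed across RNA-seq libraries of 3 mouse hind limb tissues. They are the PAR bZIP activators Dbp, Tef and Hlf, their opponent Nfil3, the clock repressors Ciart, Bhlhe40 and Bhlhe41, and the effectors Usp2 and Wee1, together with Lonrf3. The genes were taken by symbol from the deposited tables and were selected on their counts in all 6 libraries, which were known when the genes were named, so their levels, ratios and fold changes are given as a description. They are 10 of 20672 genes listed in any count table and of 16964 listed in the tables of all 3 tissues, and all 10 passed the filter on low counts.

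The series title concerns letrozole, a drug that blocks oestrogen synthesis, in female mice. The 6 libraries comprised 2 of infrapatellar fat pad, a cushion of fat inside the knee joint, 2 of rectus femoris, a thigh muscle called muscle from here on, and 2 of Achilles tendon. Both fat pad titles carry the word Letrozol and the muscle and tendon titles do not, and no label sets a treated against an untreated library within a tissue, so in every comparison with the fat pad the drug and the tissue cannot be told apart. The labels leave out strain, age, the hour of collection and the light cycle. They also do not tell whether a tissue's libraries are separate animals or had the same treatment. The authors deposited a comparison of library 1 with library 2 for each tissue. The p-values and SDs here therefore rest on the spread between libraries, which may be technical or may hold a difference in treatment. All libraries share 1 batch label, while a code in the titles differs by tissue and cannot be told apart from it.

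The mammalian clock turns on the activator pair CLOCK and BMAL1 (the latter encoded by Arntl), which binds an element called the E-box and switches on its own repressors, the PER and CRY proteins, as well as output genes. DBP, TEF and HLF are closely related leucine zipper proteins that bind an element called the D-box, where NFIL3 binds in their place and represses. Nfil3 is itself held down by the REV-ERB receptors (Nr1d1, Nr1d2) and raised by the ROR receptors through a further element, so in many tissues the Dbp and Nfil3 transcripts peak at opposite times of day.

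Promoters of the genes are shown first because the elements named above are those through which clock proteins act on such genes. The RefSeq promoter table (build GRCm38.p6) held 8 of the 10 genes with 9 promoters, since Tef has 2 starts. Bhlhe40 and Wee1 had no entry there and were not searched. The 250 bases before each start were searched on both strands for the E-box CACGTG, for the D-box spelled TTATGTAA or TTACGTAA, and for the ROR element core spelled TAGGTCA or TGGGTCA. None of these spellings overlaps another in the stretches printed here. In the sequences, written 5′ to 3′ along the gene's strand with the last base just before the start, capitals mark a match. Ciart lies on the minus strand of chromosome 3 (chr3:95882229-95882478), the second Tef start on the plus strand of chromosome 15 (chr15:81811164-81811413), Lonrf3 on the plus strand of chromosome X (chrX:36328159-36328408), Nfil3 on the minus strand of chromosome 13 (chr13:52981040-52981289) and Dbp on the plus strand of chromosome 7 (chr7:45704997-45705246).
Ciart: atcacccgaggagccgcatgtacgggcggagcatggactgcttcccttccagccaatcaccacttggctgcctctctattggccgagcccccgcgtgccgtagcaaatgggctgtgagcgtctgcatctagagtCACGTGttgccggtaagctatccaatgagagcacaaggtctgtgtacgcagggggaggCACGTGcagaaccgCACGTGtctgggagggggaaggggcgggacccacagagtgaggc
Tef: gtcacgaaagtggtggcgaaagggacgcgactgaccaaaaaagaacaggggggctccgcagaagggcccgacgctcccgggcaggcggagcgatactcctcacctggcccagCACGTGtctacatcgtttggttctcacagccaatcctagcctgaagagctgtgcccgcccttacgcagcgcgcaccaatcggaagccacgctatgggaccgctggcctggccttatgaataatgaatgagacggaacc
Lonrf3: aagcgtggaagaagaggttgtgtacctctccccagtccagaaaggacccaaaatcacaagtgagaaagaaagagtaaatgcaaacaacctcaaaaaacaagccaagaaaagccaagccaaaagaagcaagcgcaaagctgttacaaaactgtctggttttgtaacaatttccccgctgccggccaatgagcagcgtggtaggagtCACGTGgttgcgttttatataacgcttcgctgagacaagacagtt
Nfil3: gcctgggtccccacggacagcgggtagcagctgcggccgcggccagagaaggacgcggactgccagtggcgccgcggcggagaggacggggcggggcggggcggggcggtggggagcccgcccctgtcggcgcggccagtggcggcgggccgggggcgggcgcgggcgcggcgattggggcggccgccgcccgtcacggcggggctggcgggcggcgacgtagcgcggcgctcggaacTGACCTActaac
Dbp: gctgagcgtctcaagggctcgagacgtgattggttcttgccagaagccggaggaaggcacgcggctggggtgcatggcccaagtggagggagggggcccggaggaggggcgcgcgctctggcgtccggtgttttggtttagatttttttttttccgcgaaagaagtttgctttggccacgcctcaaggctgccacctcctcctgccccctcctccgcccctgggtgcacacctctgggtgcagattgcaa

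The E-box stood in the promoters of 4 genes, namely Ciart, Tef, Bhlhe41 and Lonrf3. Ciart held 3 copies, 116 to 111, 58 to 53 and 44 to 39 bases before the start. Both Tef promoters held 1 copy, in the printed one 138 to 133 bases before the start. Of 32851 promoters of the same length, 6.02% held the E-box. The ROR core stood in 1 promoter, that of Nfil3, 12 to 6 bases before the start and on the opposite strand, so that it reads TGACCTA, and 5.38% of all promoters held it. The D-box was found in 0 of the promoters of these genes and in 0.931% of all promoters. A match is a description of the letters in this window and not evidence of binding. Nfil3 had a base composition of 81.6% G and C and Lonrf3 of 45.6%, against a median of 52.4% over all promoters.

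Library totals ranged from 56216295 to 106319037 counts, and the smallest member count in any library was 36. Levels are given in CPM, counts scaled to library size, with the trimmed mean of M-values (TMM) factors. Every library carries the fat pad as its source and tissue label, and the 3 tissues are told by a further label. The markers followed the further label, with 8 adipocyte genes summing to 74178.7 and 81353.3 CPM in the fat pad libraries and to at most 3584.9 elsewhere, and 8 fast muscle genes summing to at least 256782.8 CPM in muscle and at most 117 in the fat pad. Libraries of 1 tissue differed in some of these sums. Tendon library 2 held 61763.3 CPM of fast muscle genes and library 1 held 15142.4, and the adipocyte sum was 740 in library 2 and 3584.9 in library 1. Fat pad library 1 held 1740.1 CPM of 5 neutrophil genes and 29199.8 of 4 erythroid genes, against 233 and 9374.2 in library 2, with none of either list at 0 counts in the fat pad. Summed macrophage genes (5) stood at 843 and 1318.2 CPM there, endothelial genes (4) at 203 and 138, synovial lining genes (3) at 14022.5 and 17131.1, tenocyte genes (6) at 205 and 139, slow muscle genes (6) at 2.96 and 3.37, and cell division genes (5) at 30.4 and 11.8, in libraries 1 and 2. The part of these differences in the results below was not tested, and in bulk RNA fewer cells of a type and less RNA per cell cannot be told apart.

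Dbp differed more between the fat pad libraries than between any other pair of libraries of 1 tissue. Fat pad library 1 held 108 CPM (9777 counts) and library 2 held 7.25 (815 counts). Muscle held 13.2 and 15.9 CPM and tendon 19.6 and 18.0. Fat pad library 1 was thus the highest of the 6 libraries and fat pad library 2 the lowest, with muscle and tendon in a narrow band between them. Within the fat pad, Dbp was 14.9-fold higher in library 1, a log2 ratio of library 2 over library 1 of -3.90 (95% interval -4.00 to -3.80, which covers counting error only, as do the intervals below). A lower ratio was found for 0.250% of the 13578 genes that reached 100 counts in either fat pad library. The corresponding log2 ratios were 0.27 (0.11 to 0.44) in muscle and -0.12 (-0.23 to -0.01) in tendon. Because the fat pad libraries lie on either side of the other tissues, the mean of 57.7 ± 71.4 CPM (SD, n = 2) describes neither of them. In the authors' deposited table, Dbp had a log2 fold change of library 1 over library 2 of 3.89 in the fat pad, with 1 library on each side. The annotation (GENCODE M21) has 18.01% of the exonic bases of Dbp shared with Sphk2 on the opposite strand, and reads of the pair cannot be told apart where strand was not counted.

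Tef, per kilobase the most abundant of the 3 activators in muscle and tendon, was at 97.1 and 31.0 CPM in fat pad, 352 and 331 in muscle, with 138 and 170 in tendon. No library of 1 tissue overlapped with those of another, with muscle highest and the fat pad lowest. The fat pad level was 3.14-fold higher in library 1 (log2 ratio -1.65, interval -1.71 to -1.59), while the muscle and tendon pairs had log2 ratios of -0.09 and 0.30. Hlf, per kilobase the least abundant of them in every library, was at 6.38 and 3.25 CPM in fat pad, 8.48 and 8.85 in muscle, with 15.4 and 8.43 in tendon. Its fat pad libraries stood below all others, and muscle and tendon overlapped. Hlf was 1.96-fold higher in fat pad library 1 (log2 ratio -0.97, interval -1.17 to -0.78), just short of 2-fold, and 1.82-fold higher in tendon library 1 (-0.86, interval -1.01 to -0.72).

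Nfil3 ran against the activators in the fat pad. Fat pad libraries 1 and 2 held 7.82 and 18.2 CPM, the muscle libraries 106 and 67.8, and those of tendon 39.9 and 37.0. The tissues did not overlap, with muscle highest and the fat pad lowest. Fat pad library 2 was 2.32-fold higher (log2 ratio 1.21, interval 1.09 to 1.34), and 2.63% of genes had a higher ratio there. The muscle log2 ratio was -0.65 (-0.71 to -0.58) and that of tendon was -0.11 (-0.18 to -0.03).

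**Figure D1:**
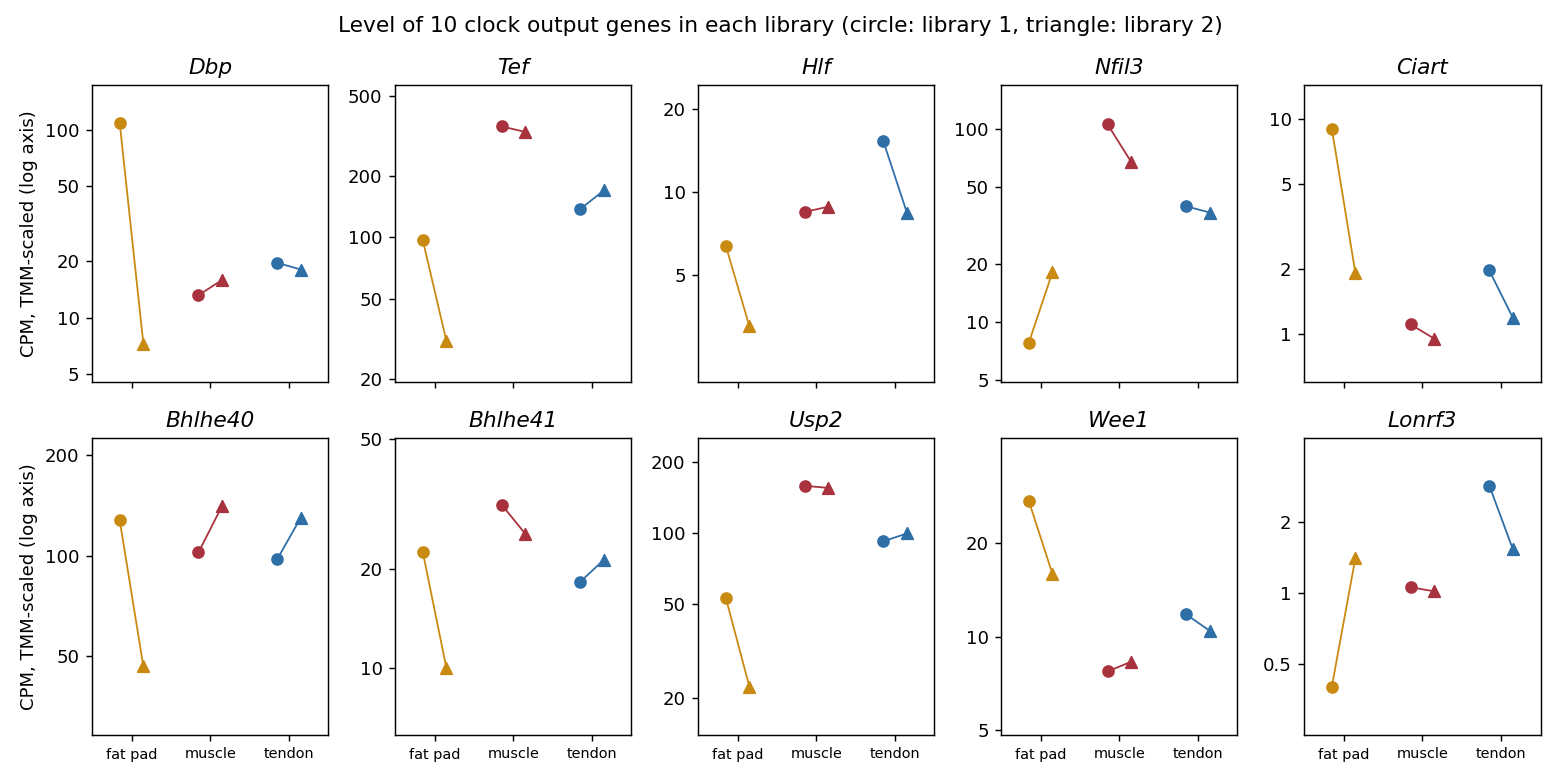
Level of each of the 10 genes in every library, in TMM-scaled CPM on a log axis that differs between panels, with circles for library 1, triangles for library 2 and a line joining the libraries of 1 tissue. In the fat pad pair Dbp has 108 and 7.25 CPM while its muscle and tendon libraries lie between 13.2 and 19.6, and Nfil3 runs the other way in the fat pad.

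Ratios within a library, which no scaling between libraries can move, showed the same contrast. Per kilobase of exon, fat pad libraries 1 and 2 held 36.1 and 2.42 CPM of Dbp and 3.86 and 8.97 of Nfil3, so the ratio of Dbp to Nfil3 was 9.36 in fat pad library 1 and 0.270 in library 2. In muscle this ratio was 0.0839 and 0.158, and in tendon 0.332 and 0.330. Fat pad library 1 is the only 1 of the 6 libraries in which Dbp exceeded Nfil3. Summed over the 3 activators, the ratio to Nfil3 was 12.8 and 0.763 in fat pad, 0.962 and 1.45 in muscle, with 1.34 and 1.58 in tendon. All libraries but fat pad library 1 therefore lay between 0.763 and 1.58. Ratios between genes depend on the lengths used, so the side of 1 on which these fall is not firm. In the authors' TPM (abundance per transcript length), Nfil3 stood at 227 and 382 in muscle libraries 1 and 2. Tef stood at 122 and 94.7 there, Dbp at 21.3 and 8.90 and Hlf at 6.84 and 3.98, together below Nfil3. Those columns did not follow the muscle counts, as described below. The make-up of the activator pool differed as well, again per kilobase. Dbp formed 73.1% of it in fat pad library 1, 35.4% in library 2, 8.71% and 10.9% in muscle and 24.8% and 20.8% in tendon. Tef formed 25.0% and 57.5% in the fat pad, and between 66.5% and 88.8% in muscle and tendon. Hlf was the smallest part in every library, from 1.93% to 8.71%.

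Ciart (also called Chrono), which represses CLOCK and BMAL1 and whose promoter above holds 3 E-boxes, was at 9.06 and 1.91 CPM in fat pad, 1.10 and 0.947 in muscle, with 1.97 and 1.18 in tendon. Fat pad library 1 stood apart, and library 2 lay within the tendon range. It was 4.70-fold higher in fat pad library 1 (log2 ratio -2.23, interval -2.47 to -2.03), with 1.22% of genes lower. Muscle held only 45 and 43 counts of Ciart, so a change under about the width of its interval (-0.86 to 0.42) was not detectable at this depth. The tendon log2 ratio was -0.73 (-1.14 to -0.35).

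Bhlhe40 and Bhlhe41 (DEC1 and DEC2), which bind E-boxes and repress, also stood higher in fat pad library 1. Bhlhe40 was at 127 and 46.6 CPM in fat pad, 102 and 141 in muscle, with 97.5 and 130 in tendon. All 3 tissues overlapped, and fat pad library 2 was the lowest of the 6. Its log2 ratio was -1.45 (-1.50 to -1.40) in the fat pad and of the other sign in muscle (0.46) and tendon (0.41). Bhlhe41 was at 22.6 and 10.0 CPM in fat pad, 31.5 and 25.7 in muscle, with 18.3 and 21.4 in tendon. Its muscle libraries were the highest, and fat pad and tendon overlapped. The fat pad log2 ratio was -1.17 (-1.28 to -1.07), with -0.29 in muscle and 0.22 in tendon. Per kilobase, Bhlhe40 exceeded Bhlhe41 in every library, by 4.63-fold to 8.67-fold. Of the exonic bases of Bhlhe41, 19.05% are shared with Gm43909 on the opposite strand, with the same limit on strand as for Dbp.

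Usp2, a protease that removes ubiquitin from its substrates, was at 53.3 and 22.4 CPM in fat pad, 159 and 155 in muscle, with 92.4 and 99.7 in tendon. The tissues did not overlap, in the order muscle, tendon, fat pad. The fat pad pair had a log2 ratio of -1.25 (-1.32 to -1.18), while the muscle and tendon pairs differed by -0.03 and 0.11. Wee1, the kinase that holds CDK1 inactive before mitosis, had the reverse order of tissues, with 27.4 and 16.0 CPM in fat pad, 7.74 and 8.32 in muscle, with 11.8 and 10.5 in tendon. Its fat pad log2 ratio of -0.78 (-0.87 to -0.69) was the smallest in size of the 10 genes there. Lonrf3, which encodes a protein with RING finger and LON domains, had per kilobase the lowest level of the 10 genes in every library, and was at 0.398 and 1.41 CPM in fat pad, 1.05 and 1.01 in muscle, with 2.85 and 1.53 in tendon. It stood higher in fat pad library 2, as Nfil3 did (log2 ratio 1.77, interval 1.29 to 2.38, from 36 and 158 counts), and its tendon ratio was -0.89 (-1.24 to -0.57).

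Within the fat pad, 8 of the 10 genes differed by more than 2-fold between the libraries, with 6 lower in library 2 (Dbp, Tef, Ciart, Bhlhe40, Bhlhe41, Usp2) and 2 higher (Nfil3, Lonrf3). Over all 13578 genes with at least 100 counts, 10.3% passed 2-fold, 6.30% lower and 4.04% higher. Just past the 2-fold line lay Bhlhe41 (-1.17) and just short of it Hlf (-0.97). In muscle 0 of the 8 genes with at least 100 counts passed 2-fold, against 2.79% of 11825 genes (1.51% higher, 1.28% lower), and in tendon 0 of 10, against 11.2% of 13148 genes (3.99% higher, 7.25% lower). This holds for the counts only. By the authors' TPM, described below, Dbp passed 2-fold in muscle (log2 ratio -1.21) and Lonrf3 in tendon (1.23, of the other sign than its count ratio). The median log2 ratio of the 10 genes was -1.21 in the fat pad, where that of all genes was 0.01. It was 0.02 over the 8 genes in muscle and -0.11 over the 10 in tendon, where that of all genes was 0.02 in both. The size of the log2 ratio ran from 0.78 to 3.90 with a median of 1.35 in the fat pad, from 0.03 to 0.65 with a median of 0.16 in muscle and from 0.11 to 0.89 with a median of 0.26 in tendon. With 1 library per side these ratios have no replicate check. The genes were named with these ratios known, so nothing is read from the counts about the group.

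**Figure D2:**
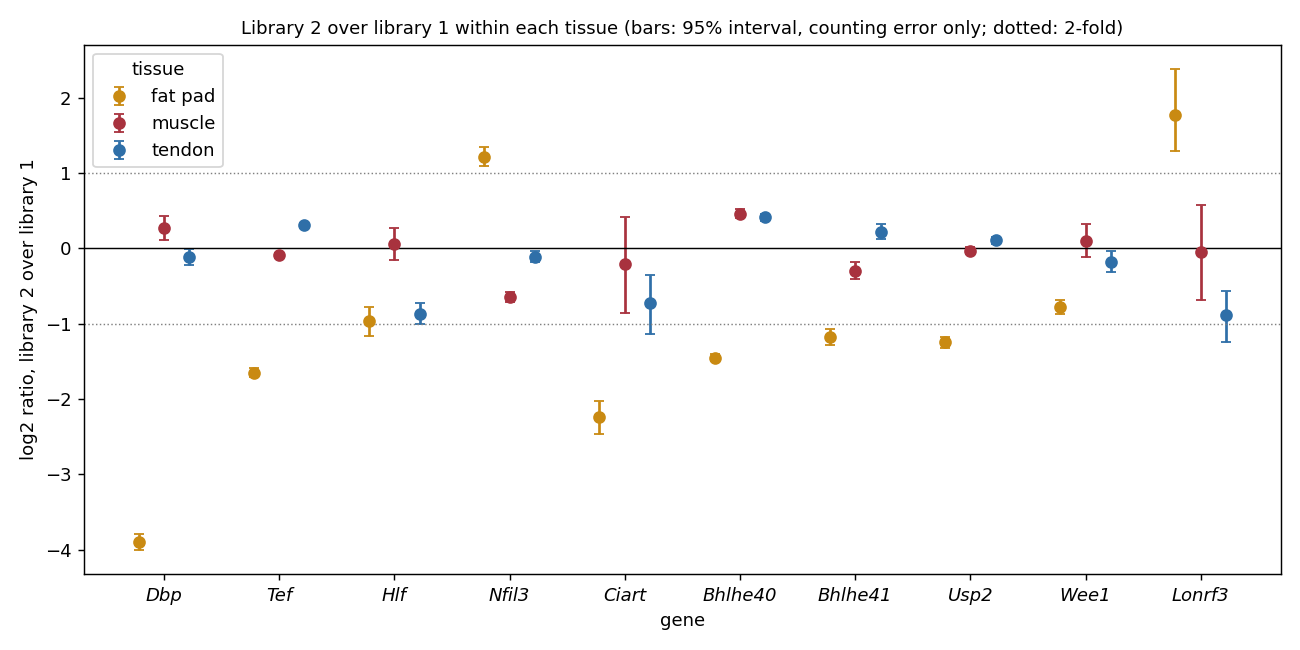
Log2 ratio of library 2 over library 1 for each gene in the fat pad, muscle and tendon, with exact conditional 95% intervals for counting error and dotted lines at 2-fold. In the fat pad 8 of the 10 points lie beyond the dotted lines, from -3.90 for Dbp to 1.77 for Lonrf3, and all muscle and tendon points lie within them.

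Some genes of the clock loop itself also differed between the fat pad libraries. Of 18 loop genes, 6 passed 2-fold, with 3 higher and 3 lower in library 2, where 10.3% of all genes passed (4.04% higher, 6.30% lower). The median log2 ratio of the 18 was -0.36. Arntl, which encodes the activator BMAL1, stood at 3.23 and 23.7 CPM in fat pad libraries 1 and 2 (log2 ratio 2.87). Npas2, a relative of CLOCK that can take its place beside BMAL1, stood at 0.808 and 4.31 (2.39), and Fbxl21, a ubiquitin ligase part that binds CRY proteins, at 0.310 and 1.61 (2.31). These genes stood higher in the library where Nfil3 was higher. On the other side, Per3 stood at 79.5 and 24.0 CPM (-1.73), Per2 at 15.2 and 5.01 (-1.59) and Nr1d2 at 70.8 and 18.3 (-1.95). Those 3 repressor genes stood higher in library 1, as Dbp did. Other loop genes differed less. Cry2 lay just short of 2-fold, at 77.9 and 39.0 CPM (-0.998). Nr1d1 stood at 104 and 81.1 CPM (-0.37), Per1 at 7.82 and 6.11 (-0.36), and the log2 ratio of Cry1 was -0.05. In muscle 1 of 16 loop genes with at least 100 counts passed 2-fold, where 2.79% of all genes did. It was Per2, at 3.33 and 7.31 CPM. In tendon 1 of 16 passed, again Per2, at 23.6 and 10.8 CPM, where 11.2% of all genes did. These lists were drawn up with earlier results of these data known, so nothing is read from these counts about the loop.

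**Figure D3:**
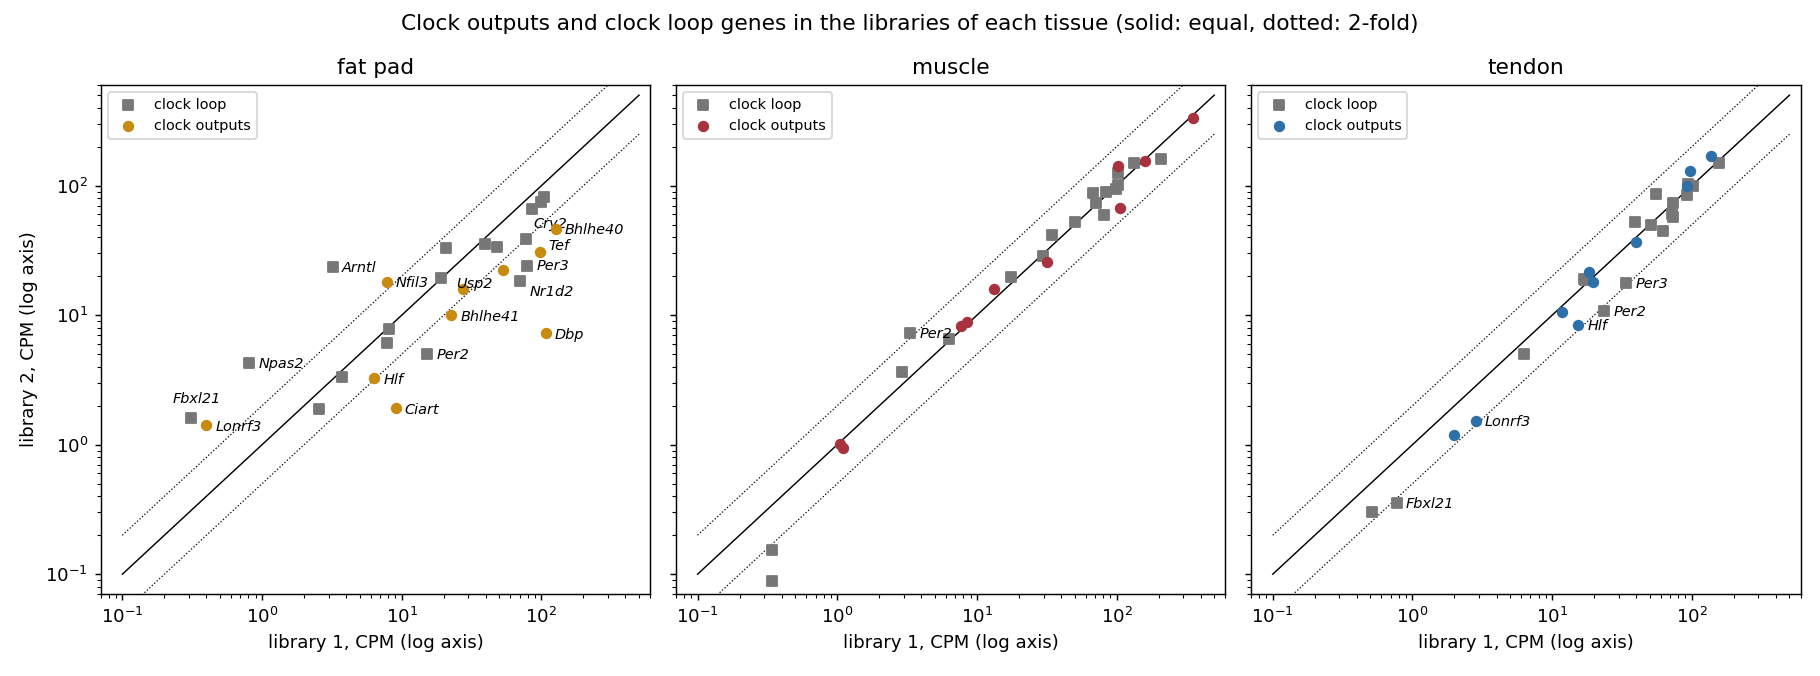
Library 2 against library 1 in CPM on log axes for the 10 output genes (circles) and 18 clock loop genes (squares) in each tissue, with a solid line of equal levels and dotted lines at 2-fold. In the fat pad Dbp, Ciart, Tef, Per3 and Nr1d2 lie below the lower dotted line and Arntl, Npas2, Nfil3 and Lonrf3 above the upper one, while in muscle and tendon nearly all points lie between the lines.

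Other genes reported to cycle in many tissues were listed as well. Of these 10, 2 passed 2-fold in the fat pad pair, where 10.3% of all genes did, Noct (7.66 and 18.7 CPM) and Cdkn1a (97.8 and 211), both higher in library 2, and the median log2 ratio was -0.06. In muscle 2 of 10 passed, Klf10 higher and Fkbp5 lower in library 2, where 2.79% of all genes passed. In tendon 0 of 10 did, where 11.2% of all genes passed. Among 5 measured genes known as PAR bZIP targets in liver and brain, Alas1, the first enzyme of haem synthesis, had 362 and 119 CPM in libraries 1 and 2 of the fat pad (log2 ratio -1.61). It is 1 of 2 targets past 2-fold there. The other is Cyp2b10, a drug-metabolising P450, with 24 and 138 counts and so the other direction. Por, the reductase that serves P450 enzymes, stood at 410 and 295 CPM in fat pad, and Pdxk, which makes active vitamin B6, at 19.7 and 24.0. Genes of erythroid cells, which make haem in quantity, summed higher in the library with more Alas1 (29199.8 against 9374.2 CPM), and their part in the Alas1 value was not tested. Cyp7a1 and Cyp2a5 were not listed in the tables of all 3 tissues.

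Between tissues, the fat pad was compared with muscle and tendon, and tendon with muscle, by edgeR's quasi-likelihood test over 15856 genes with Benjamini-Hochberg adjustment and a threshold of 0.05. Fat pad against muscle, 5 of the 10 genes were called, with Ciart and Wee1 higher and Tef, Nfil3 and Usp2 lower, where 59.4% of all genes were called (29.8% higher, 29.6% lower). The log2 fold changes were 2.42 ± 0.77 (SE) for Ciart and 1.43 ± 0.30 for Wee1. They were -2.42 ± 0.51 for Tef, -2.74 ± 0.42 for Nfil3 and -2.05 ± 0.39 for Usp2. Ciart was not called in the edgeR fits without fat pad library 1 (0.94), without muscle library 1 (2.53) or without muscle library 2 (2.31), and in the TPM columns limma called neither Ciart (1.00) nor Wee1 (0.73). Tef, Nfil3 and Usp2 were called lower than in muscle under every alternative setting tried. In the fat pad libraries 2 of the genes lay above both muscle libraries and 5 below them, with 3 overlapping, where 83.4% of all genes did not overlap. The median log2 fold change of the 10 genes was -0.65, that of all genes 0.14.

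Fat pad against tendon, 4 of the 10 genes were called, with Wee1 higher and Hlf, Nfil3 and Usp2 lower, where 58.5% of all genes were called (27.2% higher, 31.4% lower). The log2 fold changes were 0.96 ± 0.29 for Wee1, -1.30 ± 0.43 for Hlf, -1.57 ± 0.41 for Nfil3 and -1.34 ± 0.38 for Usp2. With scaling by total counts the split was 0 higher and 4 lower, since Wee1 (0.75) was no longer called and Tef (-1.46) was. The share of all genes called under that scaling is not given here. Without overlap, 1 gene lay above and 5 below both tendon libraries, where 81.5% of all genes did not overlap. The median was -0.83, that of all genes -0.01. Wee1 and Hlf depended on single libraries. Wee1 was not called without fat pad library 1 (0.59), muscle library 1 (0.95) or tendon library 2 (0.87), nor by limma in the TPM columns (0.01). Hlf was not called without fat pad library 2 (-0.91), tendon library 1 (-0.76), muscle library 1 (-1.32) or muscle library 2 (also -1.32).

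Tendon against muscle, 0 of the 10 genes were called by edgeR, where 26.0% of all genes were called (13.3% higher, 12.7% lower). At an unadjusted p under 0.05 edgeR gave 1 gene, Nfil3, and DESeq2 gave 3, Nfil3, Tef and Usp2. At an adjusted p under 0.05 DESeq2 called 2, Nfil3 and Tef. Shares of all genes for these counts are not given here, so nothing is read from them. Leaving out either fat pad library, which changes the estimate of the spread, gave 3 calls by edgeR (Nfil3, Tef, Usp2), all lower in tendon, where 12.3% of all genes were called lower without fat pad library 1 and 11.4% without library 2. The log2 fold changes were -1.18 ± 0.40 for Nfil3, -1.15 ± 0.49 for Tef and -0.71 ± 0.37 for Usp2. Without overlap, 4 genes lay above and 4 below both muscle libraries, where 70.1% of all genes did not overlap. The median was 0.14, that of all genes 0.10. The 8 fast muscle genes summed to 15142.4 and 61763.3 CPM in tendon libraries 1 and 2. The 6 slow muscle genes summed to 9649.6 and 4880.1 CPM there, and to 17.8 and 53.9 in muscle libraries 1 and 2. The part of either list in these values was not tested.

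The fold change of Dbp between tissues turned with 1 library. With both fat pad libraries it was 1.99 ± 0.99 against muscle and 1.62 ± 0.98 against tendon, called in neither. Without fat pad library 1 it was -0.97 and -1.31, called lower in both, with the remaining fat pad library assumed to vary as the other tissues do. Without that library 8 of the 10 genes were called against muscle (1 higher, 7 lower), where 51.1% of all genes were called (24.7% higher, 26.4% lower). Against tendon 7 were called (0 higher, 7 lower), where 51.4% of all genes were (23.9% higher, 27.6% lower). The members were chosen with the difference between the fat pad libraries known, so nothing is read from these counts. Leaving out muscle library 1 took the calls against tendon to 2, where 52.2% of all genes were called. The comparisons of the fat pad share its libraries, so their fold changes are not separate evidence.

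**Figure D4:**
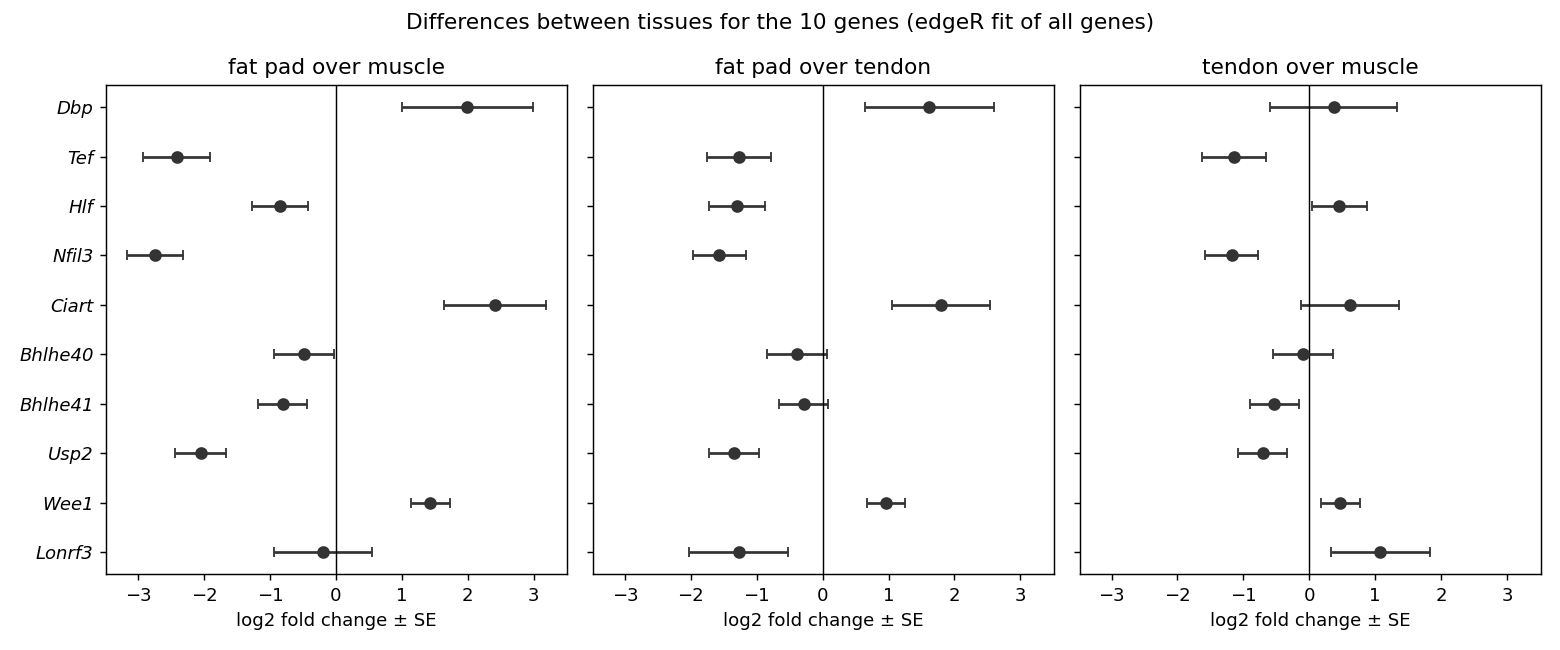
Log2 fold change between tissues for each gene with its standard error (bars), from the edgeR fit of all 6 libraries. Nfil3 and Usp2 lie below 0 by more than their error in all 3 comparisons, Wee1 lies above 0, and the bars of Dbp and Ciart are among the widest.

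The loop genes were also compared between tissues. Fat pad against muscle, 9 of 18 fell (among them Clock, Arntl, Per1, Cry1, Nr1d1, Nr1d2 and Csnk1e) and 1 rose (Rorb), where 29.6% of all genes fell and 29.8% rose. The median log2 fold change of the loop was -1.11, that of all genes 0.14. Scaling by total counts gave 5 lower and 3 higher, and that scaling moved the median of all genes by 0.51. It also moved the calls over all genes towards higher, as given in the last section. Fat pad against tendon, 8 of 18 fell (among them Clock, Arntl2, Npas2, Per1, Cry1, Nr1d1 and Csnk1e) and 1 rose (Rorb), where 31.4% of all genes fell and 27.2% rose. The median was -0.89, that of all genes -0.01. Per1, a repressor of the loop, was at 7.82 and 6.11 CPM in fat pad, 71.7 and 73.3 in muscle, with 55.8 and 86.5 in tendon, and its log2 fold change was -3.38 ± 0.27 against muscle. Its 6 libraries thus fell into a low pair in the fat pad and high values in both other tissues, where the fat pad libraries of Dbp lay on either side of the rest. Tendon against muscle, 3 loop genes fell (among them Cry1 and Rora) with TMM scaling, where 12.7% of all genes fell. Scaling by total counts gave 8 higher and 0 lower and moved the median of all genes by 0.73. Here too the calls over all genes moved towards higher, as given in the last section. Without muscle library 1 or 2 edgeR called 0 loop genes there (0.263% and 0.116% of all genes), without tendon library 1 or 2 it called 1 (11.2% and 26.9%), and without fat pad library 1 or 2 it called 6 or 5 (24.8% and 24.1%), so no direction is given for the loop.

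A list of 7 genes that act with Wee1 at the entry into mitosis was chosen with earlier results of these data known. In the fat pad 5 of the 7 rose against muscle (Cdk1, Ccnb1, Ccnb2, Cdc25b, Cdc25c), where 29.8% of all genes rose, and 1, Cdc25a, fell. With scaling by total counts, which also moved the calls over all genes towards higher (last section), the split was 6 and 0. Without fat pad library 1 the number that rose against muscle was 2 (24.7% of all genes), and without muscle library 2 it was 3 (19.6%). Against tendon 4 rose (Cdk1, Ccnb1, Ccnb2, Cdc25c), where 27.2% of all genes rose, also with any 1 library left out, while limma on the TPM columns called 0 of 6 higher and 2 lower. Shares of all genes in that limma fit are not given here, so nothing is read from its counts. Cdk1, the kinase that WEE1 inhibits, stood at 9.41 and 4.63 CPM in fat pad, 1.35 and 0.286 in muscle, with 0.644 and 0.371 in tendon. Ccnb1, the cyclin B1 partner of CDK1, stood at 7.73 and 3.09 CPM, 0.441 and 0.198, and 0.747 and 0.412 in the same order. Both were higher in fat pad library 1, where Wee1 was also higher. Within the fat pad 4 of the 7 were more than 2-fold lower in library 2 (Cdk1, Ccnb1, Ccnb2, Pkmyt1), where 6.30% of all genes were. The summed level of 5 cell division genes was 30.4 and 11.8 CPM in fat pad libraries 1 and 2. The part of dividing cells in the Wee1 values was not tested.

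Of the PAR bZIP targets, 2 of 5 rose in the fat pad against muscle (Por, Cyp2b10), where 29.8% of all genes rose, and 2 against tendon (Alas1, Por), where 27.2% did. Por had log2 fold changes of 3.26 ± 0.48 and 2.73 ± 0.46, and Cyp2b10 had 0 counts in both muscle libraries. Without fat pad library 1 or either muscle library, 1 of 5 was called in each of these comparisons, where between 42.2% and 52.2% of all genes were called. Tendon against muscle, edgeR called 0 of 5, where 26.0% of all genes were called, with 1 at an unadjusted p under 0.05, and DESeq2 called 0. Shares of all genes at the unadjusted threshold and in DESeq2 are not given here. Of the 10 genes reported to cycle widely, 2 rose (Tspan4, Cdkn1a) and 3 fell (Noct, Nampt, Ppp1r3c) in the fat pad against muscle, where 59.4% of all genes were called, a split of 4 and 1 with scaling by total counts. Under that scaling the calls over all genes also moved towards higher, here and for tendon against muscle, as given in the last section. The calls against muscle numbered 3 without muscle library 1, where 43.6% of all genes were called. Against tendon 2 rose (Tspan4, Klf15) and 1 fell (Ppp1r3c), where 58.5% of all genes were called. Tendon against muscle, 1 rose (Tspan4) and 2 fell (Klf15, Ppp1r3c), where 26.0% of all genes were called, a split of 2 and 1 with scaling by total counts. Without muscle library 1 or 2 this comparison had 0 calls among the 10, where 0.263% or 0.116% of all genes were called. Among relatives of the output genes, Lonrf1 stood at 0.575 and 0.863 CPM in fat pad, 24.2 and 17.0 in muscle, with 8.61 and 9.88 in tendon, a tissue order unlike that of Lonrf3.

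The genes most like Dbp over the 6 libraries, by the smallest root mean square difference of centred log2 CPM among 11227 genes, were Per3 (0.68), Cited2 (0.70), Clmn (0.79), Clec14a (0.80) and Il33 (0.80). Each was highest in fat pad library 1. Cited2, a transcriptional co-regulator, had 171 and 43.8 CPM in fat pad and between 32.9 and 50.8 elsewhere. Nearest to Nfil3 were Dennd6b (0.28), Cxcl14 (0.30), Carns1 (0.30), Zim1 (0.30) and Schip1 (0.31). Dennd6b stood at 3.68 and 8.24 CPM in fat pad, 31.1 and 26.6 in muscle, with 18.2 and 20.1 in tendon, in the tissue order of Nfil3. Measured the same way, Dbp and Nfil3 differed by 2.16, and Dbp and Wee1, its nearest among 7 of the other members, by 0.92. Ciart and Lonrf3 averaged under 5 CPM and were not compared, so either may lie nearer to Dbp than Wee1.

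The deposited TPM columns (the authors' abundance per transcript length) followed the counts in the fat pad and not in the other tissues. In the fat pad the TPM of Dbp was 61.6 and 4.27 and that of Nfil3 14.9 and 35.9, and all 10 genes had the sign of their count ratio. In muscle 4 of 10 and in tendon 4 of 10 had it. The TPM of Dbp was 21.3 and 8.90 in muscle, where its CPM was 13.2 and 15.9, and that of Nfil3 was 227 and 382, where its CPM was 106 and 67.8. Across genes, which are not independent replicates, the log2 library ratios from TPM and from counts correlated (Pearson) at 0.92 in the fat pad (13578 genes), -0.17 in muscle (11824 genes) and -0.21 in tendon (13147 genes). Set against the fat pad counts, the TPM ratios had the same sign for 10 of 10 genes in muscle. In tendon 8 of 10 had it, and the count ratios had it for 4 of 10 in each of these tissues. Of 18 loop genes, 14 had it by TPM in muscle and 11 in tendon, against 8 and 13 by counts. The muscle TPM ratio was below 0 for 15 of these 18. By the authors' own log2 values (library 1 as numerator), Bhlhe41 lacked the fat pad sign in muscle, at -0.19 against 1.16. A share over all genes was not computed, and the 10 genes were chosen with the fat pad ratios known. Nothing is read from this agreement about the clock outputs. A statement that the clock outputs differ between the libraries of muscle or tendon thus depends on which deposited column is read. The fat pad difference is seen in both columns, which carry the same library names and so are not separate evidence.

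**Figure D5:**
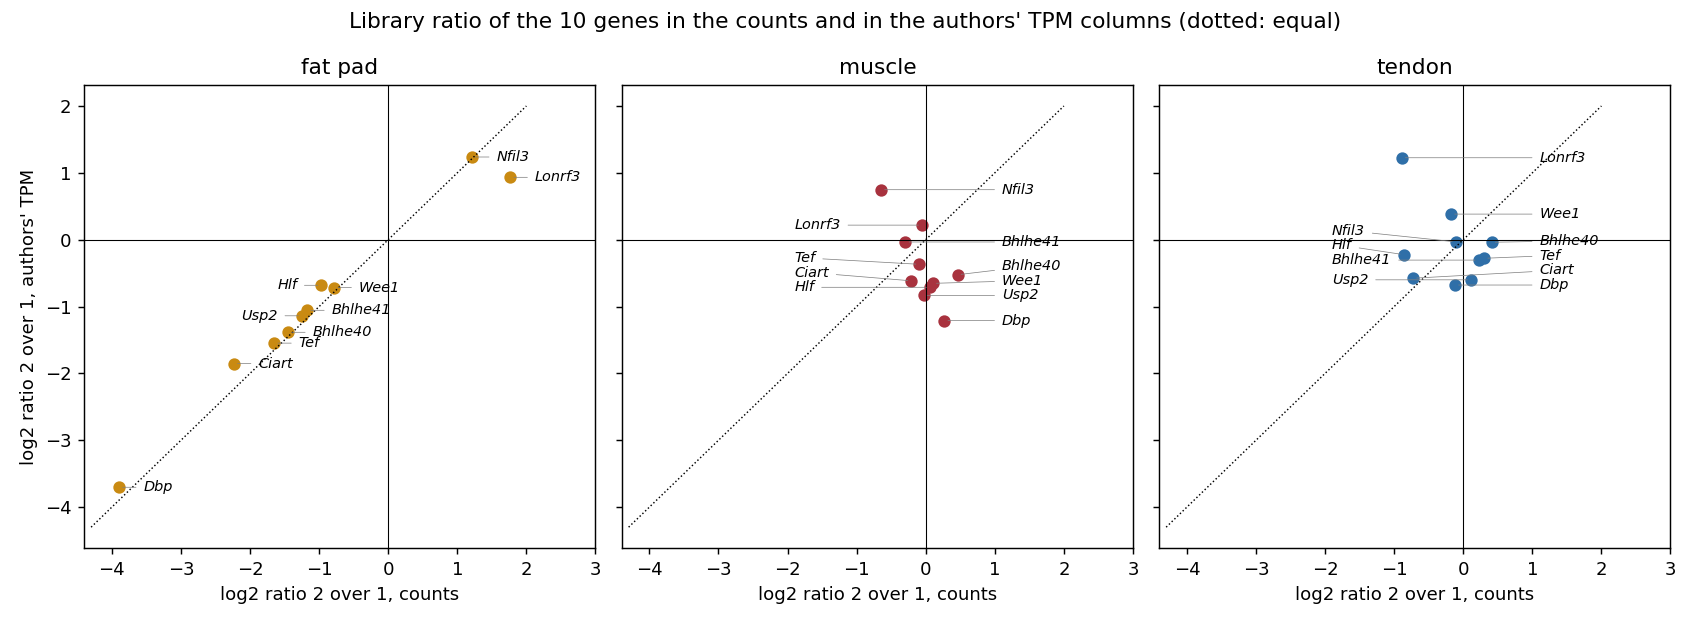
Log2 ratio of library 2 over library 1 from the authors' TPM columns (vertical) against that from the counts (horizontal) for the 10 genes, with a dotted line of equality. The fat pad points lie near the line from Dbp to Lonrf3, and in muscle and tendon the points do not follow it, with Dbp in muscle at -1.21 in TPM and 0.27 in counts.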

How the data were processed

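RNA of 6 mouse libraries was sequenced, 2 per tissue, and grouped by the label that names the 3 tissues. Build GRCm39 and the tools RSEM 1.3.1, DESeq2 1.4.5 and Bowtie2 come from the submitters' processing notes, which give none of them a role. Strand setting, annotation release and filters: not given in the sources used here. The authors deposited whole-number read counts per Ensembl gene for each tissue. They also deposited TPM columns with, per the file headers, a log2 fold change of library 1 over library 2, with p-values raw, adjusted and as −log10. These p-values were not used.

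Counts were the main values. Tissues were compared with edgeR 4.0.16 (R 4.3.3, TMM, filterByExpr, all 6 libraries, 1 term per tissue, quasi-likelihood F-test, Benjamini-Hochberg threshold 0.05). The filter left 15856 genes, and the biological coefficient of variation was 0.336. A standard error is the fitted log2 fold change over the root of its F statistic. Library ratios used TMM-scaled counts with a prior count of 2, exact conditional binomial intervals, and a minimum of 100 counts in the higher library for the 2-fold counts. Likeness covered genes averaging 5 CPM or more. Lengths per kilobase are exonic lengths in GENCODE M21. DESeq2 1.42.0 and limma 3.58.1 (on log2 of TPM plus 0.5) served as alternatives. The edgeR script was tested on simulated counts.

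The 10 genes and all gene lists were chosen with earlier results of these data known. Named genes are the 10 members, members of the lists, and the 5 genes nearest to Dbp and to Nfil3. Some list members are counted but not reported by name here. Per-sample columns not used: 0.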

Additional observations from a re-analysis of the deposited data

How the results depend on the processing

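Of the 10 genes' fold changes between tissues, those of Tef, Nfil3, Ciart and Wee1 kept their direction under all alternatives tried, as did Hlf against the fat pad. With each library left out in turn, fat pad over muscle ran from -0.97 (without fat pad library 1) to 2.89 for Dbp, from -1.35 to 0.063 (without fat pad library 2) for Bhlhe40, and from -1.38 to 0.48 (without fat pad library 1) for Lonrf3. Fat pad over tendon ran from -1.31 (without fat pad library 1) to 2.51 for Dbp, and without fat pad library 2 it reached 0.15 for Bhlhe40 (lowest -1.22) and 0.18 for Bhlhe41 (lowest -0.92). Tendon over muscle ran from -0.054 (without tendon library 1) to 0.83 for Hlf, and from -0.31 to 0.16 (without muscle library 2, and 0.083 without tendon library 1) for Bhlhe40. Scaling by total counts turned Bhlhe40 (0.036) and Lonrf3 (0.31) for fat pad over muscle, and Bhlhe40 (0.61), Bhlhe41 (0.20) and Usp2 (0.016) for tendon over muscle, and it shifted the median of all genes by 0.51, -0.21 and 0.73 (fat pad over muscle, fat pad over tendon, tendon over muscle). DESeq2 size factors shifted the second of these by 0.11. Limma on the TPM columns gave -0.39 for Dbp in fat pad over tendon (-0.34 with a pseudocount of 1, -0.39 with no filter). It gave 0.096 for Bhlhe40 and 0.013 for Usp2 in tendon over muscle, with the same values under both other TPM settings. The cause of these turns was not tested.

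Called members numbered 4 to 8 for fat pad over muscle when 1 library was left out, 2 to 7 for fat pad over tendon and 0 to 3 for tendon over muscle. Of all genes, 42.2% to 59.5%, 48.3% to 52.4% and 0.116% to 26.9% were called in these fits. In TPM 7 were called for fat pad over tendon under all 3 settings. For tendon over muscle, scaling by total counts called 1 and DESeq2 2. Shares of all genes in the TPM and DESeq2 fits are not given here, so nothing is read from these counts about the members. Called clock loop genes numbered 7 to 13, 7 to 10 and 0 to 6 with 1 library left out, in the same order of comparisons. In TPM they numbered 14 for fat pad over tendon (14 with a pseudocount of 1, 15 with no filter) and 1 for tendon over muscle under all 3 settings, and scaling by total counts gave 8 for the latter. Nothing is read from these counts about the loop, for the same reason in TPM and because total counts also raised the calls over all genes, as given next. Over all genes, tendon over muscle had 4127 calls, 6367 with total counts (5969 higher, 398 lower), 43 without muscle library 1, 19 without muscle library 2, 1816 without tendon library 1, and 19 to 4380 over all libraries left out. Total counts also moved the split for fat pad over muscle from 4728 higher and 4698 lower to 6350 and 3420.

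The labels give no pairing of same-numbered libraries, and their deviations correlated at -0.03 (fat pad and muscle), 0.00 (fat pad and tendon) and -0.17 (muscle and tendon). With the replicate block, 5, 4 and 0 members were called, as without it, and loop calls for tendon over muscle went from 3 to 1. Within tissues, 79 of 120 library ratios moved by less than their counting interval under the other scalings, prior and TPM, and 41 moved by more. Depth limits Ciart and Lonrf3 in muscle, where no library reached 100 counts.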
